A study of Rattus norvegicus with 27 samples.

Results

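The 6 genes described here encode subunits of the NMDA receptor, the glutamate-gated cation channel that admits calcium at excitatory synapses. They are Grin1, Grin2a, Grin2b, Grin2c, Grin2d and Grin3a, chosen by rat gene symbol, and all 6 were found among the 36865 rows of the count table. Each was measured by RNA sequencing in bulk tissue of the medial prefrontal cortex (mPFC) of 27 adult male Wistar rats, an outbred strain, with 1 library per rat. All 27 rats belonged to 1 group. They came from more than 1 cohort of animals, and the labels do not tie the libraries to the cohorts. They had passed a battery of anxiety tests, including the elevated plus-maze, the light-dark test and the open field, and were decapitated from the home cage in a resting state. The labels also name learned helplessness as the treatment of every rat, which the methods of the study do not describe for them. The rats had been picked by their behavioral scores, which were not used here, and no untreated rats were compared. The question asked of the data was how far each subunit varied between rats and which subunits varied together.

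A functional NMDA receptor is a tetramer that always contains GluN1, the product of Grin1, which carries the glycine site. GluN2 subunits, the products of Grin2a to Grin2d, carry the glutamate site and set the kinetics, and GluN3A, the product of Grin3a, binds glycine and lowers the magnesium block and calcium entry. In the forebrain, Grin2b is known to dominate early in life and Grin2a to join it during maturation. Grin2d is known from interneurons, and Grin2c from cerebellar granule cells and astrocytes.

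Before the results, 3 facts of the libraries bear on them. First, the number in the library title parted the totals, with 4907255 to 8568317 counts in the 16 libraries numbered up to 31 and 9404220 to 12771309 in the 11 numbered from 32. These are called the depth blocks here, and the labels do not say what the number stands for. Second, library 3 stood apart, with an upper-layer marker score of -3.08 and an oligodendrocyte score of 2.44 (means of z scores over each marker list). Lastly, libraries 12 and 20 had 19987 and 16900 normalized counts of Rn18s, the 18S ribosomal RNA, against 853 to 5243 in the other 25. Markers of cortical excitatory neurons were present in every library, Slc17a7 with 11183 ± 1417 normalized counts (SD, n = 27). The rows of Sst, an interneuron marker, and Cux1, an upper-layer marker, were at 0 in all 27 libraries, so neither could be used.

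RefSeq windows of the 250 bases before the annotated start (build GRCr8) were at hand for 4 of the 6 subunits. They are printed because Grin1, Grin2c and Grin2d were called together across the rats, as shown further on, while Grin3a was not called with Grin2c or Grin2d. This grouping has limits. Grin1 and Grin2c were not called with the depth block as a term, and Grin3a and Grin2c were called, with negative slopes, without library 3. All are on the minus strand and are written 5′ to 3′ in the direction of the gene, with CG dinucleotides in capitals. The windows are chr3:28528755-28529004 for Grin1, chr10:101005139-101005388 for Grin2c, chr1:105481237-105481486 for Grin2d and chr5:69001559-69001808 for Grin3a.
Grin1: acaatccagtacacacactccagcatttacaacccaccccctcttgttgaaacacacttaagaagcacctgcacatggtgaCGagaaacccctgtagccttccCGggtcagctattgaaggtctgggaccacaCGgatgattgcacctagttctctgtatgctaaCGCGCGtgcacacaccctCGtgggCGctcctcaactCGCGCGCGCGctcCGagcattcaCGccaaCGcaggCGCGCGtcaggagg
Grin2c: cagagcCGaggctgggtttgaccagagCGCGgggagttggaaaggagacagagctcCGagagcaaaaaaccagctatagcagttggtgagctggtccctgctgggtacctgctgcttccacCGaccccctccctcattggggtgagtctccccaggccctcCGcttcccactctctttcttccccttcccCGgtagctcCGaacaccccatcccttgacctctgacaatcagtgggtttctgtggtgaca
Grin2d: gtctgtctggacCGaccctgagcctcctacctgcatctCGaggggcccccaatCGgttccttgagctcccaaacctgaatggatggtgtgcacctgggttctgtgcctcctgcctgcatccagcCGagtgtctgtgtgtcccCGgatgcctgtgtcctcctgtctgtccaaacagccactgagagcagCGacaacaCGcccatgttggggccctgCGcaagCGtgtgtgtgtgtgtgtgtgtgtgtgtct
Grin3a: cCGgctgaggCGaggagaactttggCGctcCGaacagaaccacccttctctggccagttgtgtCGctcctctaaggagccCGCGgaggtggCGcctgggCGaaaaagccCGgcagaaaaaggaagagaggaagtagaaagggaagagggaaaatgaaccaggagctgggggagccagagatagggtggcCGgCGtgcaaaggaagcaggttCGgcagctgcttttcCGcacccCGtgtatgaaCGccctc
Grin1 held 19 CG dinucleotides and Grin3a 16, against 9 in Grin2d and 8 in Grin2c, and the median of all 33469 windows was 5. Their GC content was 57.6% in Grin1, 59.6% in Grin2c and 60.4% in Grin2d and Grin3a, with a median of 51.2% over all windows. The windows richest in CG were thus those of Grin1 and Grin3a. None of the 4 windows held GGGCGG (the GC box), TATAAA (the TATA box) or TGACGTCA (the cyclic AMP response element) on either strand. Of all windows, 30.5%, 12.9% and 1.59% held these motifs, in the same order.

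The levels of the 6 subunits are given as normalized counts, the reads divided by the size factor of the library. They are not per length, since no transcript length was used, so their order between genes was not compared. Grin1 (gene ID 24408) had 6525 ± 766 normalized counts (SD, n = 27), from 4285 in library 3 over a median of 6625 to 7628 in library 32. This 1.78-fold range was close to that of a typical gene: its SD on the log2 scale was 0.18, and 52.2% of all genes tested had a larger one. Without library 3 the range of Grin1 fell to 1.44-fold.

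Grin2a (24409) was the least even of the 6, with 70.2 ± 47.2 normalized counts. Its lowest value was 15.3 in library 3, its median 57.5 and its highest 216 in library 12, a 14.1-fold range (10.2-fold without library 3). The SD on the log2 scale was 0.88, and 1.40% of genes had a larger one. These values rest on 10 to 190 reads per library, and counting error made up 3.23% of the variance. The highest 4 libraries, 12, 13, 15 and 20, all lay in the block numbered up to 31, with 133 to 216 normalized counts, and no library numbered from 32 passed 89.3. Libraries 12 and 20 were also those rich in Rn18s.

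Grin2b (24410) had 480 ± 97.6 normalized counts, with 313 in library 5, a median of 470 and 766 in library 54. Grin2c (24411) had 748 ± 134, with 499 in library 20, a median of 763 and 1057 in library 35. Grin2d (24412) had 172 ± 34.7, with 112 in library 3, a median of 173 and 256 in library 51. These 3 genes spread alike, with SDs of 0.28, 0.26 and 0.29 on the log2 scale and ranges of 2.45-fold, 2.12-fold and 2.30-fold.

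Grin3a (191573) had 76.9 ± 21.8 normalized counts, with 13.8 in library 3, a median of 78.2 and 132 in library 12. Its 9.56-fold range rested on library 3: the next lowest value was 49.7 in library 54, and without library 3 the range was 2.65-fold. The reads of Grin3a ran from 9 to 130 per library, and counting error made up 16.6% of the variance. Library 3 was thus the lowest of all 27 for Grin1, Grin2a, Grin2d and Grin3a, but its Grin2b, at 593, lay above the mean. Fewer cells that carry a subunit and less of its RNA per cell cannot be told apart in such bulk tissue, for library 3 or for any result that follows.

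**Figure D1:**
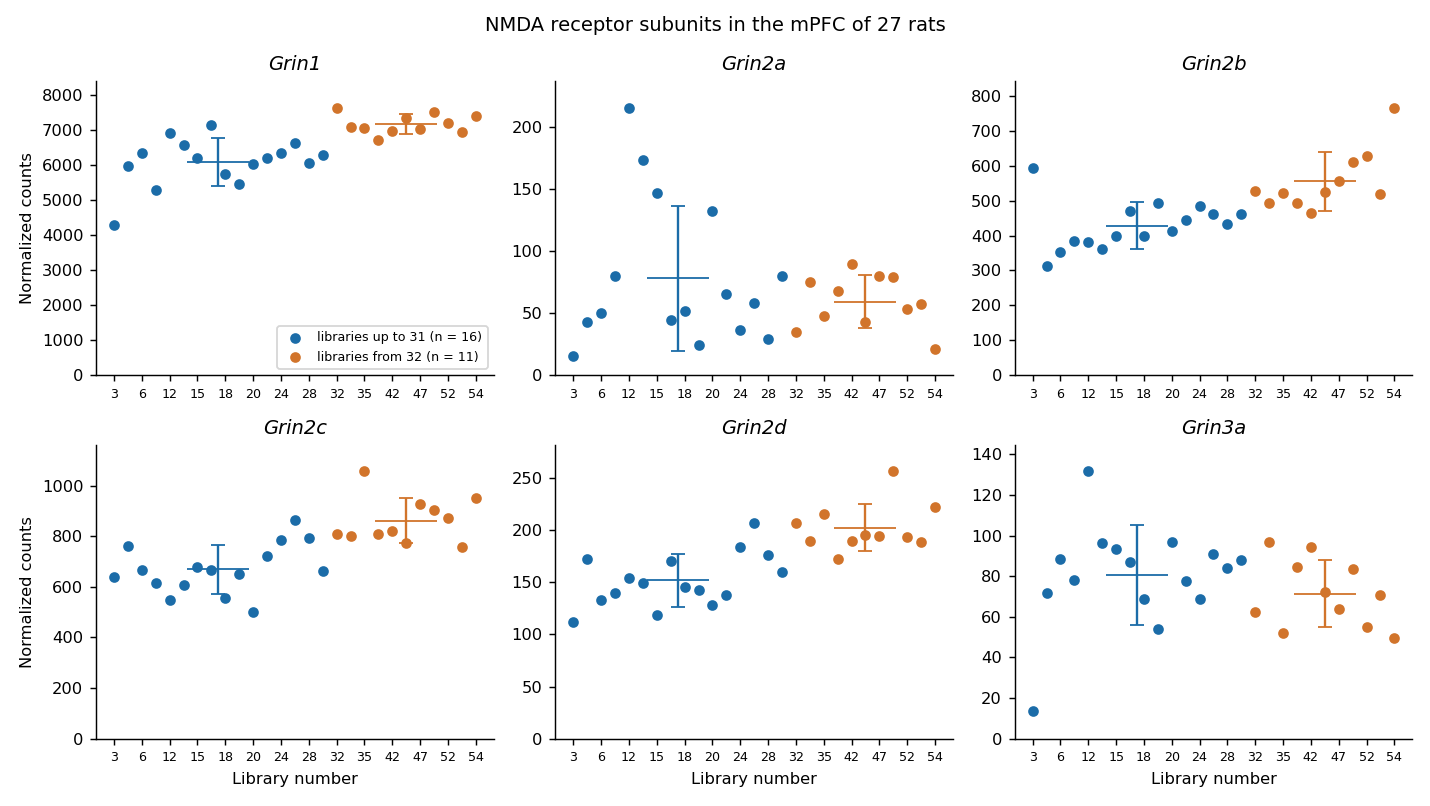
Normalized counts of the 6 subunits (y axis, from 0) in each of the 27 libraries (x axis, in the order of the library number, every other number printed); points are libraries, coloured by depth block, and horizontal lines with bars are block means ± SD. Grin2a reaches 216 in library 12 and 15.3 in library 3, while Grin1, Grin2b, Grin2c and Grin2d sit higher in the 11 libraries numbered from 32.

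All 6 subunits varied by more than counting error (chi-square test of the dispersion of the counts against that of Poisson counts, Benjamini-Hochberg adjusted over all genes tested), as did 89.8% of the 11730 genes tested, so passing this test does not set them apart. Grin3b, the remaining NMDA receptor gene, had only 26.5 ± 8.79 normalized counts (12 to 70 reads), and 35.2% of its variance was counting error.

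Between the depth blocks, 4 of the 6 subunits were higher in the libraries numbered from 32 (edgeR quasi-likelihood test over all genes, adjusted p under 0.05). Of all 11716 genes tested, 18% differed between the blocks and 8.85% were higher in the later one. The obligatory subunit Grin1 stood at 6084 ± 680 normalized counts in the 16 libraries up to 31 (mean ± SD) and at 7165 ± 272 in the 11 from 32, a log2 difference of 0.24 ± 0.05 (SE, edgeR adjusted p = 0.00134). The groups overlapped little, since 2 libraries of the earlier block lay above the lowest of the later one. Grin2b had 428 ± 67.6 and 555 ± 85.3 normalized counts (log2 difference 0.38 ± 0.08, edgeR adjusted p = 0.00144).

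Grin2c had means of 670 ± 97.4 normalized counts in the earlier block and 862 ± 90.6 in the later one (log2 difference 0.36 ± 0.07, edgeR adjusted p = 4.84e-04). Grin2d had 152 ± 25.4 and 202 ± 22.6 (log2 difference 0.41 ± 0.08, edgeR adjusted p = 4.78e-04). For Grin2b, Grin2c and Grin2d, 4, 4 and 3 of the 16 earlier libraries lay above the lowest later one, so the blocks overlapped only in part. Grin2a, with 77.9 ± 58.3 and 59.0 ± 21.4 normalized counts, was not called (log2 difference -0.41 ± 0.31, edgeR adjusted p = 0.396). Nor was Grin3a, with 80.6 ± 24.6 and 71.4 ± 16.5 (log2 difference -0.18 ± 0.16, edgeR adjusted p = 0.499). Leaving out any 1 library changed none of these 6 calls. Depth and library number go with the block, and their part in these differences was not tested. Nor could the part of cohort be tested, since the labels do not tie the libraries to the cohorts.

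The library number itself ran with some subunits. Across 26 libraries, without library 3, Spearman's rho of the number with Grin2b was 0.900, with 0.771 among the 15 remaining libraries up to 31 and 0.545 among the 11 from 32. With library 3 the values of Grin2b were 0.741 over all 27 and 0.459 in the earlier block. Grin1, by contrast, had rho = 0.716 with the number over all libraries but 0.235 and -0.01 within the blocks. Grin2d and Grin2c had 0.788 and 0.748 over all 27, with 0.474 and 0.368 up to 31 and 0.118 and 0.145 from 32. Grin2a had -0.04 and Grin3a -0.251 over all 27 libraries. Without library 3 these 2 were -0.164 and -0.401, and that of Grin1 in the earlier block was 0.07. These are descriptions, since the libraries share their block and the meaning of the number is not given.

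The 15 pairs of subunits were then described by Spearman's rho of their levels over the 27 libraries. All values share the size factors of the libraries, and no p was computed for a rho. Whether a pair moved together was read from 6 fits across all genes, each with 1 subunit's level (in SDs of its log2 value) as the covariate, so that each pair was tested in both directions. In these fits 33.4% of all genes tested followed Grin1, 21.4% Grin2a, 18.1% Grin2b, 26.4% Grin2c, 29.3% Grin2d and 27.3% Grin3a (edgeR adjusted p under 0.05). The share that fell with the subunit was 17.3% for Grin1, 8.33% for Grin2a, 9.3% for Grin2b, 14.1% for Grin2c, 16.2% for Grin2d and 12.7% for Grin3a. Against this background, 8 of the 15 pairs were called in both directions, 6 with a positive and 2 with a negative slope, 1 pair in 1 direction and 6 in none. That background shrank without library 3 to 2718 genes from 4045 for Grin1, 1463 from 2560 for Grin2a and 1400 from 3334 for Grin3a. For Grin2b and Grin2c it grew, to 2779 from 2173 and to 3541 from 3156.

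Grin2a and Grin3a, the subunits with the widest ranges, rose and fell together. Spearman's rho was 0.729 over 27 libraries, 0.815 in the block up to 31 and 0.691 in the block from 32. Grin2a changed by 0.86 ± 0.13 on the log2 scale per SD of Grin3a (SE, edgeR adjusted p = 2.79e-05), and Grin3a by 0.34 ± 0.06 per SD of Grin2a (edgeR adjusted p = 2.05e-04). The same relation shows in the 4 libraries with the most Grin2a. They had 93.3 to 132 normalized counts of Grin3a, all above its mean of 76.9. Library 3 was lowest for both, yet without it rho was 0.696. The pair was called in both directions without each library in turn and under each of the 7 alternatives for these fits, the depth block as a term among them. Among the genes tested for spread, 1.55% had a rho with Grin2a at least as high, Grin3a included.

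The other 5 pairs called with positive slopes joined Grin1, Grin2b, Grin2c and Grin2d, and those of Grin2d with Grin2c and with Grin1 were still called with the block as a term. Grin2c and Grin2d had the highest rho of the 15 pairs, 0.857, and 0.443% of genes had one with Grin2c at least as high. Grin2d changed by 0.23 ± 0.03 on the log2 scale per SD of Grin2c (edgeR adjusted p = 2.21e-05). Grin1 and Grin2d had rho = 0.803, and Grin2d changed by 0.23 ± 0.04 per SD of Grin1 (edgeR adjusted p = 1.97e-05). With the block as a term, their slopes were smaller: 0.17 ± 0.05 for Grin2d on Grin2c (edgeR adjusted p = 0.0129) and 0.16 ± 0.05 for Grin2d on Grin1 (edgeR adjusted p = 0.0137). After removal of the block means, rho was 0.514 for Grin2c and Grin2d and 0.535 for Grin1 and Grin2d.

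The relations of Grin1 to Grin2c and of Grin2b to Grin2c and Grin2d were not called once the block was a term. Spearman's rho over all libraries was 0.674 for Grin1 and Grin2c, 0.650 for Grin2b and Grin2c and 0.628 for Grin2b and Grin2d, and each pair was called in both directions. With the block as a term, edgeR adjusted p of the 3 pairs lay between 0.359 and 0.789. In the block up to 31 their rho was 0.215, 0.203 and 0.07, and in the block from 32 it was 0.245, 0.518 and 0.718, so rho of Grin2b and Grin2d was no lower within the later block than over all libraries. For Grin1 and Grin2b, rho was 0.607 and neither direction was called (edgeR adjusted p = 0.176 and 0.213). Without library 3 this pair had rho = 0.751 and was called in both directions (edgeR adjusted p = 0.00163 and 0.00359).

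Grin2b ran against Grin2a and Grin3a. Spearman's rho of Grin2b with Grin3a was -0.607 over all libraries, -0.488 up to 31 and -0.709 from 32, and 1.27% of genes had a rho with Grin3a at least as low. Grin3a changed by -0.25 ± 0.08 on the log2 scale per SD of Grin2b (edgeR adjusted p = 0.0214). This slope was -0.22 without library 12 (edgeR adjusted p = 0.0519) and -0.25 without library 54 (edgeR adjusted p = 0.0585), just past the threshold, while the call of Grin2b on Grin3a held without each library in turn. Grin2a and Grin2b had rho = -0.391, with -0.526 and -0.445 within the blocks. Grin2a changed by -0.48 ± 0.14 per SD of Grin2b (edgeR adjusted p = 0.0192).

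The opposite course of Grin2a and Grin2b kept its sign and much of its size without each library in turn, but its calls lay near the threshold. The slope of Grin2a on Grin2b was -0.39 without library 12 (edgeR adjusted p = 0.0583), -0.42 without 13 (edgeR adjusted p = 0.0607) and -0.44 without 54 (edgeR adjusted p = 0.0662). The slope of Grin2b on Grin2a was -0.14 ± 0.05 with all libraries (edgeR adjusted p = 0.0273). It stayed at -0.14 to -0.13 without library 3, 12 or 13 (edgeR adjusted p = 0.0692, 0.0646 and 0.0626) and was -0.10 without 54 (edgeR adjusted p = 0.116). With the block as a term both directions were called (edgeR adjusted p = 0.0282 and 0.00629). Leaving out 1 library kept rho of the pair between -0.471 and -0.320. Without libraries 12 and 20, those rich in Rn18s, the slopes were -0.35 and -0.14 (edgeR adjusted p = 0.0990 and 0.0968), and that of Grin3a on Grin2b was -0.20 (edgeR adjusted p = 0.0872). Spearman's rho of Rn18s with the subunits was -0.615 for Grin1, 0.216 for Grin2a, -0.369 for Grin2b, -0.407 for Grin2c, -0.389 for Grin2d and 0.05 for Grin3a over 27 libraries, and its part in these relations was not tested.

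**Figure D2:**
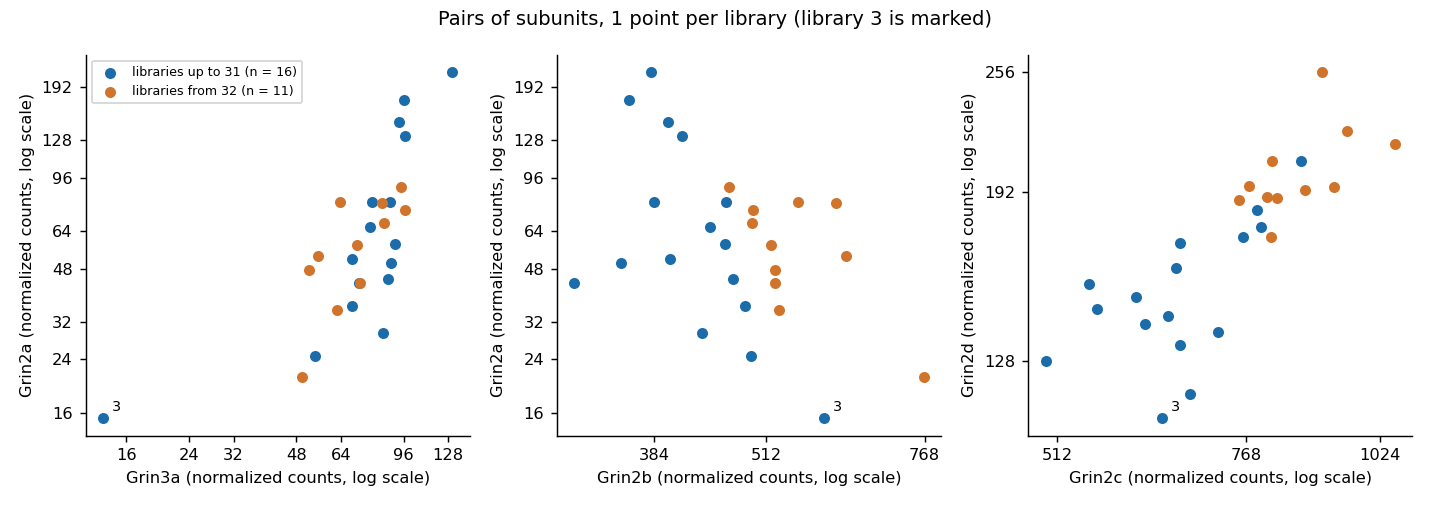
Normalized counts of Grin2a against Grin3a, Grin2a against Grin2b and Grin2d against Grin2c, 1 point per library, coloured by depth block, on log axes, with library 3 marked. Spearman's rho over 27 libraries is 0.729 in the first panel, -0.391 in the second and 0.857 in that of Grin2d and Grin2c, where the 11 libraries numbered from 32 lie toward the upper right.

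A ratio of 2 subunits within a library is free of the size factors. On the log2 scale, Grin2a to Grin2b ran from -5.28 in library 3 to -0.82 in library 12, a 21.9-fold range of the ratio between rats. Its SD was 1.06, where counting error alone gave 0.22. Grin2d to Grin2c, in contrast, ran over a 1.63-fold range with an SD of 0.18, not far above the 0.13 that counting gave. The ratio of Grin3a to Grin2a had an SD of 0.61 and that of Grin2b to Grin1 an SD of 0.29. Grin2a and Grin2b are known as the main GluN2 subunits of the adult forebrain, and their ratio is usually followed as a measure of receptor maturation. Maturation was not measured in these adult rats. The ends of the range of that ratio lay in library 3, which stood apart, and library 12, which was rich in Rn18s.

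The relation of Grin1 and Grin3a depended on which libraries entered it. Spearman's rho was -0.05 over all 27 libraries, 0.635 up to 31 and -0.355 from 32. Pearson's r was 0.500 with library 3 and -0.08 without it. The slope of Grin1 on Grin3a was just short of the threshold (edgeR adjusted p = 0.0537), and with the block as a term both directions were called (edgeR adjusted p = 0.00239 and 2.56e-04). Leaving out 1 of 10 libraries (9, 15, 20, 26, 28, 32, 35, 47, 52 or 54) brought this slope under the threshold as well, with edgeR adjusted p of 0.0243 to 0.0489, and without library 3 it was -0.02. Grin2a on Grin2c was called in 1 direction only (-0.40 ± 0.13 on the log2 scale, edgeR adjusted p = 0.0250), with -0.29 without library 12 (edgeR adjusted p = 0.129), -0.35 without 13 (edgeR adjusted p = 0.0549) and -0.39 without 20 (edgeR adjusted p = 0.0602).

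A further 3 slopes were called when library 3 was left out and not with it, namely Grin3a on Grin2c (edgeR adjusted p = 0.0118, against 0.176 with it), Grin2c on Grin3a (edgeR adjusted p = 0.0262, against 0.450) and Grin2a on Grin2d (edgeR adjusted p = 0.0407, against 0.168). All 3 were negative. The pairs Grin1 and Grin2a, and Grin2d and Grin3a, had rho of 0.00 and -0.261 (-0.122 and -0.413 without library 3) and were called in neither direction with or without it. Pearson's r of Grin2d and Grin3a was 0.138 with library 3 and -0.375 without it.

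**Figure D3:**
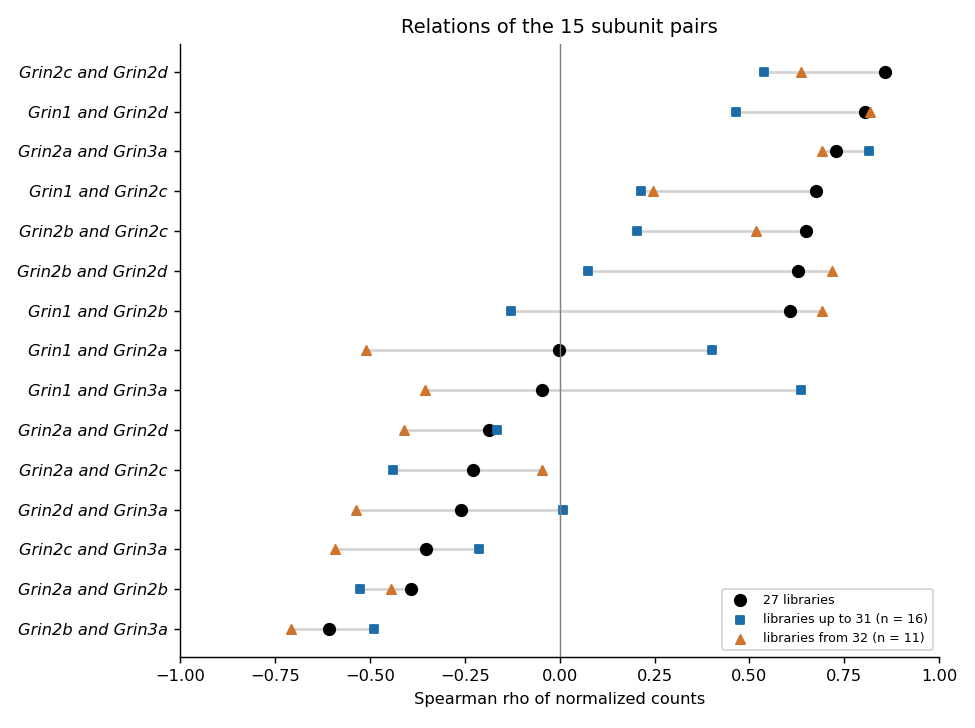
Spearman's rho (x axis) of each of the 15 subunit pairs (y axis, ordered by rho over all libraries) over 27 libraries (black circles), the 16 numbered up to 31 (squares) and the 11 numbered from 32 (triangles). Of the pairs, 11 have the same sign in both blocks, and 4 have opposite signs, namely Grin1 with Grin2a, Grin2b or Grin3a and Grin2d with Grin3a.

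Whether a relation differed between the blocks was tested by the interaction of block and subunit in fits across all genes. None of the 30 directed relations among the subunits was called (edgeR, 0 of 30 at an adjusted p under 0.05 and 3 at an unadjusted p under 0.05), and in each fit at most 0.0164% of all genes were: 0.0164% for Grin2d, 0.00818% for Grin2b and 0% for the other 4. The lowest adjusted p was 0.482, so the relations of Grin1 and Grin3a, of opposite sign in the blocks, were not shown to differ.

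The partners and signaling genes of the receptor, a list of 25 scaffolds, kinases, phosphatases and auxiliary proteins, were set against each subunit. Of the 25 genes, 17 rose with Grin1 and 0 fell (edgeR adjusted p under 0.05), with a median slope of 0.12 on the log2 scale per SD of Grin1, where 16.1% of all genes tested rose and the median over all was 0.00. Nos1, the neuronal nitric oxide synthase, had the largest slope, 0.30 ± 0.09 (edgeR adjusted p = 0.00956). Shank1, a scaffold, rose by 0.28 ± 0.04 (edgeR adjusted p = 4.00e-06). Ppp3r1, the regulatory subunit of calcineurin, had the smallest slope, -0.03 ± 0.03 (edgeR adjusted p = 0.421). Without library 3, 11 of the 25 rose and 0 fell, where 10.9% of all genes rose. Shank1 was among them (edgeR adjusted p = 0.00128), but Nos1 was not (edgeR adjusted p = 0.267). With the upper-layer marker score, which ran with Grin1, 18 of the 25 rose and 0 fell, with a median slope of 0.15, where 16.7% of all genes rose. Without library 3, 7.16% of all genes rose with this score, and the 25 were not counted. The part of cell composition in the count of Grin1, and in those of the other subunits given next, was not tested.

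With Grin3a, 12 of the 25 rose and 0 fell, where 14.6% of all genes rose, and without library 3 there were 5 that rose and 1 that fell, where 7.47% of all genes rose. With Grin2a, 7 rose and 0 fell, where 13.1% of all genes rose, and without library 3 there were 5 and 0, where 8.71% rose. Dlg2, the scaffold PSD-93, had the largest slope on both: 0.44 ± 0.06 per SD of Grin3a (edgeR adjusted p = 5.11e-06) and 0.36 ± 0.06 per SD of Grin2a (edgeR adjusted p = 1.82e-04). Dlg2 also had the smallest slope on Grin2b, -0.34 ± 0.06 (edgeR adjusted p = 5.54e-04), so it followed the same opposite course as Grin2a and Grin3a. Without library 3 these 3 slopes of Dlg2 were still called (edgeR adjusted p = 6.81e-04, 0.00126 and 1.95e-04).

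With Grin2d, 11 of the 25 rose and 1 fell, where 13.1% of all genes rose, but with the block as a term 4 rose and 1 fell, where 5.70% of all genes rose and 7.10% fell. With Grin2c, 6 rose and 2 fell, where 12.3% of all genes rose, and with the block 3 rose and 5 fell, where 7.01% of all genes rose and 8.54% fell. With Grin2b, 4 rose and 3 fell, where 8.77% of all genes rose, and with the block 0 rose and 5 fell, where 4.95% of all genes rose and 7.73% fell. Cacng8, the AMPA receptor auxiliary subunit TARP gamma-8, had the largest slope on these 3 subunits, 0.24 ± 0.03 per SD of Grin2d, 0.20 ± 0.04 per SD of Grin2c and 0.19 ± 0.04 per SD of Grin2b (edgeR adjusted p = 4.10e-07, 1.51e-04 and 0.00164). It was also higher in the libraries from 32, by 0.44 ± 0.06 on the log2 scale (edgeR adjusted p = 2.08e-05). For Grin1 the block as a term left 17 of 25 that rose and 0 that fell, where 15.2% of all genes rose. Without library 3 the counts were 7 that rose and 3 that fell with Grin2d, 6 and 5 with Grin2c, and 5 and 1 with Grin2b, where 13.8%, 13.4% and 12.5% of all genes rose and 15.8%, 16.2% and 10.5% fell.

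**Figure D4:**
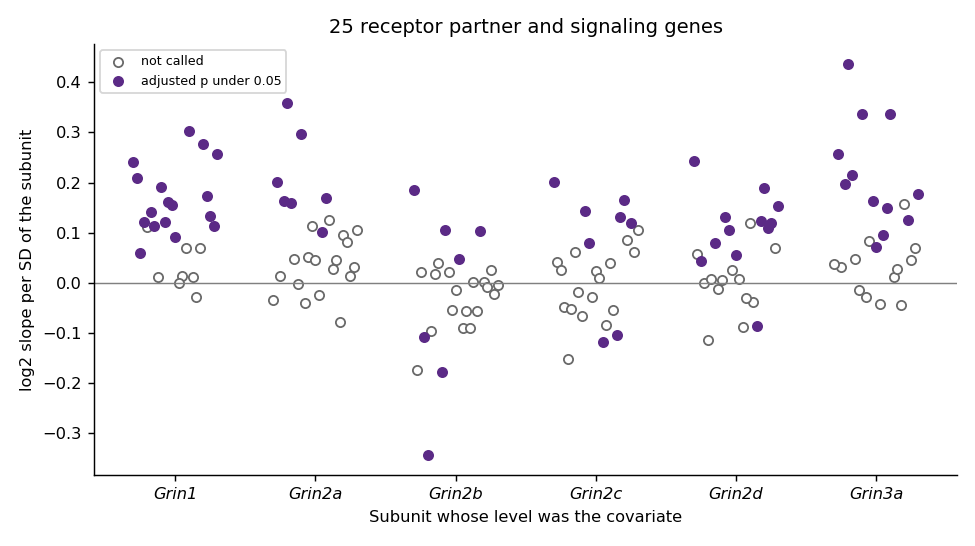
Slopes on the log2 scale per SD of each subunit (y axis) of the 25 receptor partner and signaling genes, for the 6 subunits (x axis); filled points have an edgeR adjusted p under 0.05. With Grin1, 17 of 25 genes rose and 0 fell, while with Grin2b, 4 rose and 3 fell.

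The next list held genes for the supply or clearance of glutamate and the co-agonists glycine and D-serine, of which 14 were tested. Of these, 4 rose and 4 fell with Grin1, 5 rose and 2 fell with Grin3a, and 3 rose and 0 fell with Grin2a. Of all genes, 16.1% rose and 17.3% fell with Grin1, 14.6% and 12.7% with Grin3a, and 13.1% and 8.33% with Grin2a. With Grin2b 0 rose and 2 fell, with Grin2c 1 rose and 0 fell, and with Grin2d 1 rose and 2 fell, where 8.77%, 12.3% and 13.1% of all genes rose and 9.3%, 14.1% and 16.2% fell. Without library 3 the counts were 3 that rose and 1 that fell with Grin1, 2 and 0 with Grin3a, 2 and 0 with Grin2a, 1 and 3 with Grin2b, 1 and 0 with Grin2c, and 1 and 0 with Grin2d. In the same order, 10.9%, 7.47%, 8.71%, 12.5%, 13.4% and 13.8% of all genes then rose, and 11.8%, 4.16%, 3.51%, 10.5%, 16.2% and 15.8% fell. Dao, the D-amino acid oxidase, was too low to be tested. The astrocytic glutamate transporter Slc1a2 had the largest slope on Grin2a, 0.43 ± 0.07 (edgeR adjusted p = 4.32e-05), and the smallest on Grin2b, -0.37 ± 0.08 (edgeR adjusted p = 0.00350). Phgdh, the first enzyme of serine synthesis, had the smallest slope on Grin1, -0.13 ± 0.04 (edgeR adjusted p = 0.00763), and Slc7a10, a carrier of D-serine and glycine, the smallest on Grin3a, -0.10 ± 0.02 (edgeR adjusted p = 0.00342). Without library 3 the slope of Slc7a10 was -0.08 ± 0.04 and not called (edgeR adjusted p = 0.237). Srr, the serine racemase that makes D-serine, had the largest slope on Grin2d, 0.08 ± 0.03 (edgeR adjusted p = 0.0155), but 0.05 ± 0.02 without library 3 (edgeR adjusted p = 0.0910).

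Among the 4 AMPA receptor subunits, which carry fast excitation at the same synapses, 1 rose and 1 fell with Grin1, 1 rose and 0 fell with each of Grin2a and Grin3a, and 0 rose and 2 fell with each of Grin2c and Grin2d. With 4 genes these counts are set against 16.1% of all genes that rose and 17.3% that fell with Grin1, 13.1% and 14.6% that rose with Grin2a and Grin3a, and 14.1% and 16.2% that fell with Grin2c and Grin2d. Gria1 rose with Grin3a by 0.28 ± 0.03 on the log2 scale per SD (edgeR adjusted p = 1.65e-06), with Grin2a by 0.19 ± 0.05 (edgeR adjusted p = 0.00418) and with Grin1 by 0.17 ± 0.05 (edgeR adjusted p = 0.0152). Gria2, which makes the channel impermeable to calcium, fell with Grin2d by 0.16 ± 0.03 (edgeR adjusted p = 9.88e-05), with Grin2c by 0.14 ± 0.03 (edgeR adjusted p = 6.14e-04) and with Grin1 by 0.10 ± 0.03 (edgeR adjusted p = 0.0249). Gria4 fell with Grin2c by 0.13 ± 0.03 (edgeR adjusted p = 0.00135) and with Grin2d by 0.12 ± 0.03 (edgeR adjusted p = 0.00460). Without library 3 the rise of Gria1 with Grin1 was 0.04 ± 0.05 and not called (edgeR adjusted p = 0.653), and on Grin2a it was 0.13 ± 0.04 (edgeR adjusted p = 0.0259). No AMPA receptor subunit was called with Grin2b, where 8.77% of all genes rose and 9.3% fell, so with 4 genes this count says little.

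Marker lists of 12 cell types and states were scored in each library, and the subunits were tested against each score across all genes. Of the 72 relations between a subunit and a score, 6 were called. Grin1, Grin3a and Grin2d rose with the upper-layer score, by 0.14 ± 0.02, 0.31 ± 0.08 and 0.16 ± 0.05 on the log2 scale per SD (edgeR adjusted p = 2.20e-05, 0.00482 and 0.0112), where 33.6% of all genes were called. Grin1 rose with the excitatory neuron score by 0.09 ± 0.03 (edgeR adjusted p = 0.0377), where 9.5% of all genes were called. Grin1 and Grin3a rose with the interneuron score by 0.10 ± 0.03 and 0.27 ± 0.08 (edgeR adjusted p = 0.0439 and 0.0345), where 7.79% of all genes were called.

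Without library 3, Grin1 on the upper-layer score was the 1 call of 72 (edgeR adjusted p = 0.0105). The share of all genes called fell as well, to 12.9% for the upper-layer score, 2.72% for the excitatory neuron score and 0% for the interneuron score (0 genes with edgeR, 1118 at an unadjusted p under 0.05). The upper-layer list had 3 usable genes of 4, and its summed level ran from 893 to 2463 normalized counts up to number 31 and from 1617 to 2325 from number 32. The 6 usable interneuron markers of 7 summed to 4443 to 5627 and 4883 to 5935 normalized counts in the same blocks. All 4 excitatory neuron markers were measured, with sums of 24967 to 33782 and 29734 to 39979. The part of cell composition in the relations between subunits was not tested.

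Grin2c was not called with the score of astrocytes, nor Grin2d with that of interneurons, the cells with which they are usually linked. Grin2c had a slope of 0.02 ± 0.05 on the astrocyte score (edgeR adjusted p = 0.917), and Grin2d a slope of 0.09 ± 0.05 on the interneuron score (edgeR adjusted p = 0.276). The other 9 lists are those in which edgeR called no subunit, so its 0 of 54 relations restates that choice (5 at an unadjusted p under 0.05). With DESeq2 0 of the 54 passed as well (6 at an unadjusted p under 0.05). In the edgeR fits of these lists 0.107% to 2.57% of all genes were called. These shares were 0.918% for the deep-layer score, 1.18% for astrocytes, 1.8% for oligodendrocytes, 0.649% for their precursors, 0.719% for microglia, 0.713% for vessels, 2.57% for meninges, 0.134% for immediate early genes and 0.107% for striatum. With the block as a term 1 of these 54 was called, a negative slope of Grin1 on the oligodendrocyte score (-0.09 ± 0.02, edgeR adjusted p = 0.0201), in a fit that called 3.70% of all genes. Of the 8 oligodendrocyte markers, 7 fell with Grin3a and 4 with Grin1, where 12.7% and 17.3% of all genes fell, and without library 3 the counts were 0 and 0. With the block as a term 7 fell with each of Grin3a and Grin1, where 16.1% and 14.8% of all genes fell. Of the 6 astrocyte and 8 microglia markers, 3 each fell with Grin1, and 0 and 1 rose. Without library 3, where 11.8% of all genes fell, 1 astrocyte and 3 microglia markers fell with Grin1.

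The genes whose ranks were most like each subunit were taken among the 9759 named genes with at least 50 normalized counts, over 27 libraries. For Grin1 they were Ap2a1, a subunit of the clathrin adaptor AP-2, with rho = 0.946, and then Sez6l2, Ptprs, Nrxn2 and Ripor1 with 0.910 to 0.913. Ptma, prothymosin alpha, had the lowest rho with Grin1, -0.926, followed by Ddx3x and Cyrib. Ap2a1 kept rho of 0.891 and 0.845 within the blocks.

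For Grin2a the 5 leading genes were Stxbp5l (rho = 0.955), Cacna1e (0.950), Klhl11 (0.918), Kcnq3 (0.917) and Grm5 (0.911). They include 2 voltage-gated channels, Cacna1e of the R-type calcium current and Kcnq3 of the M current, and the metabotropic glutamate receptor mGlu5. Cacna1e had 203 ± 134 normalized counts (SD, n = 27) and Stxbp5l 72.7 ± 47.1, so these 2 spread about as widely between rats as Grin2a did. Dbnl, Haus7 and Tsen54 ran opposite, with rho from -0.788 to -0.749. For Grin3a the leading genes were Tnik, a synaptic kinase, with rho = 0.869, Ttbk2, Uhmk1, Cdh6 and Lpgat1, and the lowest were Slc50a1 (-0.801), Gpn2 and Rhbdl1.

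For Grin2b the leading genes were Agap3 (rho = 0.909), Ptov1, Dnpep, Rab11b and Actl6b, the neuronal subunit of a chromatin remodeling complex. Anp32e had the lowest rho with Grin2b, -0.908, followed by Spcs3 and Crk. For Grin2c they were Pbx4 (0.924), MAST1, Radil, Grik5 (0.913) and Gga1, of which Grik5 encodes a kainate receptor subunit, and Eif4a2, a translation initiation factor, was lowest with -0.912. For Grin2d they included Cherp (0.919), Inpp5j, Tgfbrap1 and Cacna1a (0.907), the P/Q-type calcium channel, and Pdcd10 was lowest with -0.913. No subunit was among the 5 leading genes of another.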

How the data were processed

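RNA was measured in bulk mPFC tissue of 27 rats by single-read Illumina sequencing. The authors deposited 1 table of raw counts, the whole number of reads they counted on each NCBI gene ID in each library, without normalization. Per the labels, processing used Trimmomatic, STAR and HTSeq; versions, genome build and strandedness are not given in the sources used here, and 436 rows hold genes split over loci, so overlapping and multi-locus genes are uncertain. The labels and the methods of the study name different library kits. Totals were 4907255 to 12771309 counts (median 8168801). Symbols came from the RefSeq gene list of GRCr8, which named 27825 of 36865 rows holding 99.5% of all counts.

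Normalized counts are the counts over size factors estimated in DESeq2 (version 1.42.0) by median of ratios, and log2 levels had 1 added first, so that changes of low genes come out too small. Spread was tested where the mean count reached 10. Fits used the quasi-likelihood test of edgeR (version 4.0.16) after filterByExpr and TMM, two-sided and Benjamini-Hochberg adjusted over all genes tested at 0.05, with a subunit, the depth block, a marker score or the product of block and subunit as covariate. These are correlational fits over 1 group, and genes that share a covariate are not independent. Scripts were tested on simulated data. Reads carry no molecular identifiers, so counting errors cover counting only. The alternatives were DESeq2 size factors and its Wald test, no filter, a pseudocount of 0.1, TMM or total scaling, the block as a term, and left-out libraries; leaving out each library in turn, and library 3, was chosen after seeing the data.

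Named genes were the 6 subunits, Grin3b, the lists of receptor partners, glutamate and co-agonist supply or clearance, and AMPA receptor subunits (counts, and the largest and smallest slope per subunit), and per subunit the 5 genes with the highest and 3 with the lowest rho. Shank1 and the further slopes of Dlg2, Cacng8, Gria1, Gria2 and Gria4 outside this rule were named after their values were seen. The members, lists and depth split were chosen with earlier results of these data known. Anxiety scores were not used here, and some genes that the rule names are not reported here.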

Additional observations from a re-analysis of the deposited data

How the results depend on the processing

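Most results kept their direction and call. The number of genes that followed Grin1 fell from 4045 to 2092 without the 2 libraries farthest from its median. That of Grin2a fell from 2560 to 734 under the same alternative and to 1245 without libraries 12 and 20, and that of Grin3a from 3334 to 530 without its 2 farthest. That of Grin2b fell from 2173 to 1443 without libraries 12 and 20. With the block as a term, the counts were 1870 for Grin2c and 1539 for Grin2d, against 3156 and 3489. The cause was not tested beyond the smaller number of libraries or the block itself. Of the 72 relations of subunits and marker scores, 0 were called without the 2 farthest libraries and 1 without library 3, against 6. The shares of all genes called on the upper-layer and interneuron scores fell too, from 33.6% and 7.79% to 4.44% and 0% without the 2 farthest (627 genes at an unadjusted p under 0.05 on the interneuron score) and to 12.9% and 0% without library 3, while that on the excitatory neuron score went from 9.5% to 15.1% and 2.72%. The interaction of Grin2b and block was called for 0 genes without library 3, against 1.

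Leaving out each library in turn gave 2718 to 4216 genes for Grin1, 1463 to 2958 for Grin2a, 1534 to 2779 for Grin2b, 2775 to 3541 for Grin2c, 2866 to 3569 for Grin2d and 1400 to 3532 for Grin3a, and 1808 to 2471 for the blocks. The lowest counts of Grin1, Grin2a and Grin3a were those without library 3. Without library 12, 1626 genes followed Grin2a. The number of directed relations called among the subunits ran from 13 to 21 of 30, against 17.

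Spearman's rho of 8 pairs moved beyond its 95% interval within or after removal of the blocks. In the libraries up to 31 it was 0.400 for Grin1 and Grin2a, -0.129 for Grin1 and Grin2b, 0.215 for Grin1 and Grin2c, 0.465 for Grin1 and Grin2d, 0.635 for Grin1 and Grin3a, 0.203 for Grin2b and Grin2c, 0.0735 for Grin2b and Grin2d and 0.538 for Grin2c and Grin2d. From 32 it was -0.509 for Grin1 and Grin2a, 0.245 for Grin1 and Grin2c and 0.636 for Grin2c and Grin2d. With block means removed it was 0.0891 for Grin1 and Grin2b, 0.190 for Grin1 and Grin2c, 0.535 for Grin1 and Grin2d, 0.270 for Grin2b and Grin2d and 0.514 for Grin2c and Grin2d. The 10 to 190 reads of Grin2a and 9 to 130 of Grin3a limit their precision in single libraries. No paired analysis was possible because all rats form 1 group.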
